A study of Arabidopsis thaliana x Arabidopsis lyrata and Arabidopsis thaliana x Arabidopsis halleri with 18 samples.

Results

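The change in allele balance after 1 hour of cold was measured in F1 plants of Arabidopsis thaliana Col-0 crossed with the accession MN47, which the labels assign to Arabidopsis lyrata. For each plant and gene the level of the second allele was divided by that of the thaliana allele on a log2 scale, and the mean of the standard plants was subtracted from that of the cold plants. Genes were kept where the 2 alleles together averaged at least 10 per plant in the cold plants and in the standard plants, which 10618 of 16419 genes did. Another 868 genes met that mean in the cold plants only, 637 in the standard plants only and 4296 in neither, and these were not tested. At the edge of the rule, the lower of the group means was 10 for the gene just inside and 9.67 for the gene just outside.

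The cold group was 3 ColxMN47 plants held at 4 °C for 1 hour in dim light. The dehydration group, used beside it, was 3 ColxMN47 plants taken off the agar for 1 hour at 22 °C in dim light. The standard group was 3 ColxMN47 plants kept at 22 °C. A second hybrid, Colxhalleri (ecotype Col-0xh2.2, with Arabidopsis halleri as the second parent by the labels), had the same treatments with 3 plants in each. All 18 plants were 4 weeks old, had been stratified for 5 days and were raised on sucrose agar in a day of 16 h light and 8 h dark at 22 °C, and each library came from 1 plant. The labels give the whole aerial part as the extracted material but call the standard samples leaves, give dim light to the treated plants only, and do not state the time of day. Tissue, light and time of day therefore cannot be told apart from cold in what follows. In the ColxMN47 files the second allele is headed as the halleri allele, and in the Colxhalleri files as the lyrata allele, which is the reverse of the plant labels. It is called the second allele throughout, and no difference is assigned to a species.

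In an F1 hybrid, the alleles of both parents lie in the same nucleus and meet the same transcription factors. A difference between the alleles in mRNA level is therefore read in this field as a difference in cis, in the sequence or state of each gene copy, and a change in the ratio under a treatment as an allele-specific response. Cold rapidly induces the CBF factors in Arabidopsis, which bind the CRT/DRE element in promoters of cold-regulated genes, while the circadian clock, abscisic acid and heat shock factors act on overlapping sets of genes through the evening element, the G-box and the heat shock element.

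The upstream sequences of 2 genes are shown, AT4G08280 because its ratio rose with the lowest p-value of all genes tested and AT5G02240 because its ratio had the largest called fall. Both are the thaliana reference from RefSeq TAIR10.1, plus strand, the 250 bases before the annotated gene start, with capitals marking the motifs searched. The stretch of AT4G08280 is chr4:5229995-5230244 and that of AT5G02240 is chr5:451156-451405. The MN47 promoters were not used here.
AT4G08280: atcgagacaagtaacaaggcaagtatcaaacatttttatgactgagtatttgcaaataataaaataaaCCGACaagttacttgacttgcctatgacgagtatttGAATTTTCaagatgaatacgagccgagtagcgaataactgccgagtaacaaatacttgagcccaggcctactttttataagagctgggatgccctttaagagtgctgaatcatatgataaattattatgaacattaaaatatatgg
AT5G02240: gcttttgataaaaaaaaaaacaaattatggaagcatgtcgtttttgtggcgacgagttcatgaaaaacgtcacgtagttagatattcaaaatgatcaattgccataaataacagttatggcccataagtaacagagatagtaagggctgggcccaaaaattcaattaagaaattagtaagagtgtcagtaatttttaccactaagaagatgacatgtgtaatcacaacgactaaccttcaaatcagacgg
Both strands were searched for CCGAC (CRT/DRE), AAAATATCT (evening element), CACGTG (G-box) and GAANNTTC (heat shock element core), in windows of 300 bases that also took in 50 bases after the start. Near the start of AT4G08280, CCGAC began 182 bases before it and GAANNTTC 146 bases before it. These did not overlap. The window of AT5G02240 held none of the 4 motifs. Over all 27443 protein-coding windows, CCGAC was in 15.05%, AAAATATCT in 2.817%, CACGTG in 7.678% and GAANNTTC in 11.58%. Among the 10 called genes, CCGAC was in 1, AAAATATCT in 1, CACGTG in 2 and GAANNTTC in 1.

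Across the 6 plants compared, deposited totals were 1528465 to 1529621 per library, the thaliana allele took 49.1% to 51.1% of the total and 9493 to 11428 genes had alleles summing to 10 or more. The share of the top 10 genes was 3.93%, 2.29% and 4.60% in cold plants, against 9.49%, 10.9% and 12.1% in standard plants, without overlap. In each cold plant the highest values lay on a plateau. The 10th highest deposited thaliana value was 2875, 1559 and 3299 in cold plants, next to highest values of 2901, 1565 and 3356, while in standard plants it was 5085, 4529 and 4907, below highest values of 10131, 29443 and 29181. Within 10% of the highest there were 28, 58 and 17 thaliana values in cold plants, against 2, 1 and 1 in standard plants. The highest second-allele values in cold plants lay above the plateau of the thaliana values, at 3572, 2716 and 4782. Of the genes tested, 80 (0.753%) had an allele within that margin or above it in a cold plant, and no cold change in level or ratio is read from them. None of the 10 called genes was among them, and leaving the 80 out also gave 10 calls. The source of the plateau was not tested. Values had been scaled to near-equal totals and rounded, so the read depth is unknown and no counting interval is given. Correlations of the ratio over the 10618 genes were 0.652 to 0.690 between cold plants, 0.630 to 0.686 between standard plants and 0.519 to 0.667 between a cold and a standard plant. Between a cold and a dehydration plant they were 0.561 to 0.786, the highest being cold replicate 1 with dehydration replicate 3. Dehydration replicate 2 and standard replicate 1 stood apart. Dehydration replicate 2, which shares the estimate of spread, had 61.0% thaliana and a median ratio of -0.62, and standard replicate 1 had a TMM scaling factor of 0.773. Of 9 root markers in the files, 3 were at 0 in all 6 plants and their summed value was 4 to 12 in cold plants and 0 to 4 in standard plants. Of 8 floral and meristem markers, 5 were at 0 and the sum was 2 to 4 in cold plants and 9 to 32 in standard plants.

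Allele balance stayed close to that of standard plants for most genes. The median change was -0.05 and the median size of a change was 0.33 on the log2 scale, against a median standard error of 0.37. A change of more than 1 in size was measured for 9.0% of genes, 443 upward (toward the second allele) and 513 downward (toward the thaliana allele), and a change of more than 2 for 91 upward and 59 downward. The median SD of the ratio was 0.28 in cold plants and 0.37 in standard plants (n = 3 each). Genes averaging 10 to 20 had median SDs of 0.37 in cold plants and 0.57 in standard plants, and genes over 200 had 0.22 in cold plants and 0.24 in standard plants, so the ratio was more precise at higher levels.

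With limma and Benjamini-Hochberg adjustment over the 10618 genes, 10 genes were called at an adjusted p below 0.05 (0.0942%), 2 higher in cold (0.0188%) and 8 lower (0.0753%). Unadjusted p was below 0.05 for 1038 genes (9.78%), 404 higher (3.80%) and 634 lower (5.97%). The cold and standard plants did not overlap in 2286 genes (21.5%), 909 higher (8.56%) and 1377 lower (13.0%). The adjusted p-values of the called genes lay between 0.042 and 0.049, close to the threshold. No gene was called without cold replicate 1, 2 or 3, without standard replicate 2 or 3, or without dehydration replicate 1 or 3; 1 gene was called without standard replicate 1 and 3 without dehydration replicate 2. The count was 70 with library weights (20 higher, 50 lower), 17 with centred ratios (5 higher, 12 lower), 4 with no filter, 2 in a fit of the 6 plants and 1 with 0.5 added, so the number called depended on the setting. Each of the 10 called genes kept its direction in every alternative in which it could be measured. The call itself was kept most often for AT4G08280, in 9 of 19 alternatives, and least often for AT1G48770, in 2 of 18. With 1 library left out, AT4G08280 kept it in 1 of 9 fits, AT5G65170 in 1 of 8 and each other called gene in 0 of 9.

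**Figure D1:**
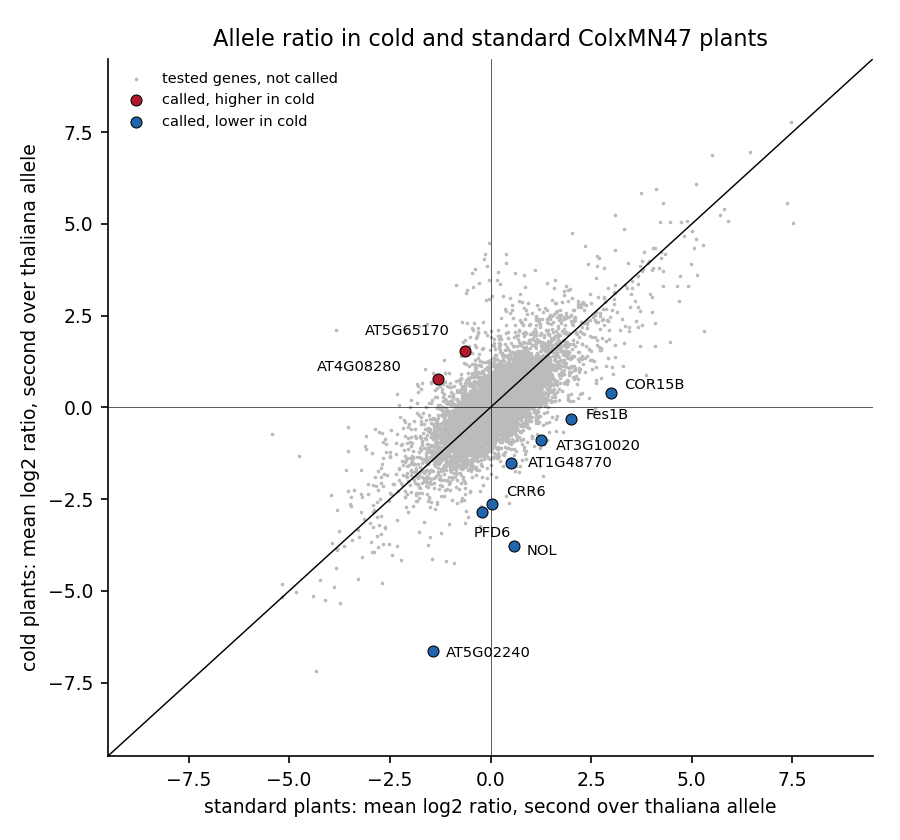
Mean log2 ratio of second over thaliana allele in 3 cold plants (vertical) against 3 standard plants (horizontal) for 10618 genes, with the diagonal marking no change. The 2 called rises lie above the diagonal and the 8 called falls below it.

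By which allele was more abundant, 1988 genes (18.7%) had the second allele ahead in all 6 plants and 1603 (15.1%) had the thaliana allele ahead in all 6. In 151 genes (1.42%) the thaliana allele was ahead in all 3 cold plants and the second allele in all 3 standard plants. In 108 genes (1.02%) the second allele was ahead in all 3 cold plants and the thaliana allele in all 3 standard plants. The share of genes with an unadjusted p below 0.05 was 9.28% to 10.2% on each of the 5 chromosomes.

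Thioredoxin-fold and VQ genes made up the called rises. AT4G08280 encodes a thioredoxin superfamily protein (chromosome 4, 5230245 to 5232196, TAIR10.1). Its log2 ratio was 0.61, 0.78 and 0.91 in cold plants, against -1.24, -1.33 and -1.34 in standard plants. The second allele was ahead in every cold plant and the thaliana allele in every standard plant. Here and below, allele values are the deposited ones less the 1 that each holds. The second allele read 174, 231 and 179 in cold plants and 21, 36 and 33 in standard plants, with no overlap. The thaliana allele read 114, 134 and 95 in cold plants and 51, 92 and 85 in standard plants. The ratio rose by 2.07 ± 0.25 (SE; limma adjusted p = 0.042). In a library from whole tissue, a lower allele level from fewer expressing cells and from less RNA per cell cannot be told apart.

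AT5G65170 encodes a VQ motif protein, a family of small partners of WRKY factors. Its ratio was 1.58, 1.42 and 1.58 in cold plants, against -0.85, -0.32 and -0.74 in standard plants, and rose by 2.16 ± 0.29 (limma adjusted p = 0.044). This rests on low values, since its second allele read 5, 15 and 14 in cold plants and 4, 11 and 2 in standard plants. Its thaliana allele read 1, 5 and 4 in cold plants and 8, 14 and 4 in standard plants.

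**Figure D2:**
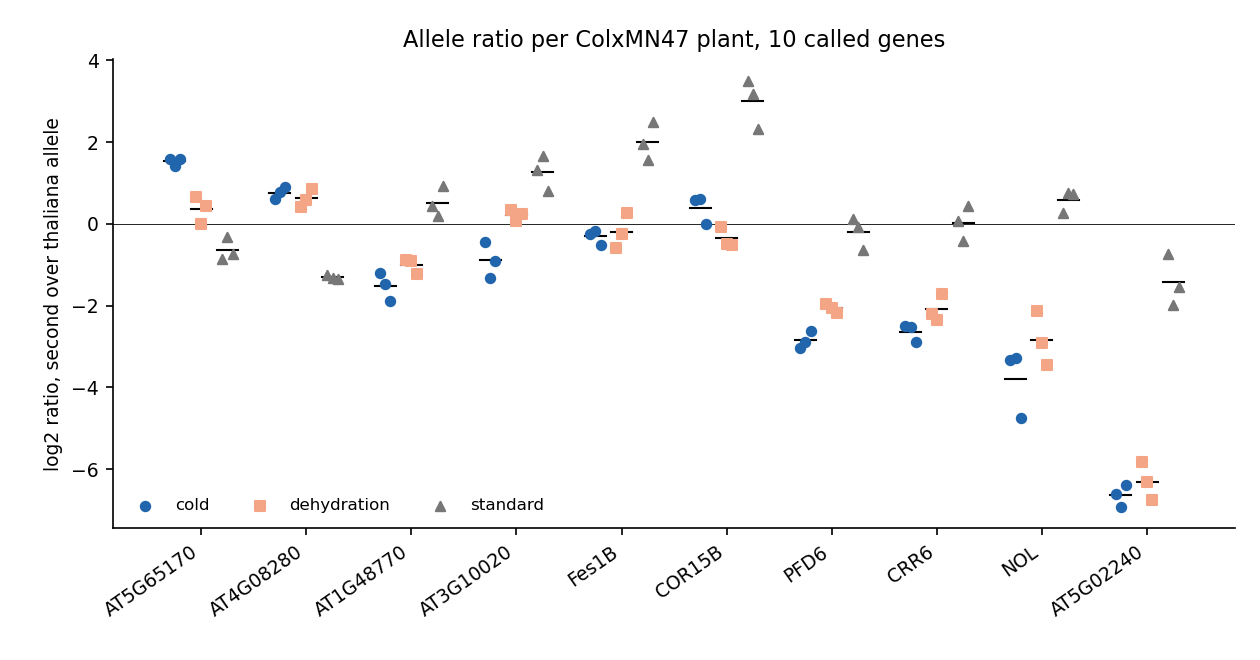
Log2 ratio of second over thaliana allele for the 10 called genes, 1 point per ColxMN47 plant, with bars at group means. Cold and standard plants are separate in each gene, with the widest gap in AT5G02240 (change of -5.23).

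Among the called falls, NOL, CRR6 and AT5G02240 had a second allele that read far lower in cold plants, without overlap. NOL, a chlorophyll b reductase subunit that acts with NYC1 in chlorophyll breakdown, had ratios of -3.32, -3.27 and -4.75 in cold plants, against 0.27, 0.76 and 0.72 in standard plants. Its second allele read 1, 2 and 1 in cold plants and 28, 21 and 27 in standard plants. The thaliana allele read 19, 28 and 53 in cold plants and 23, 12 and 16 in standard plants, so its ranges overlapped while those of the second allele did not. The ratio of NOL changed by -4.37 ± 0.57 (limma adjusted p = 0.044).

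CRR6, needed to assemble the chloroplast NADH dehydrogenase-like complex, had ratios of -2.50, -2.52 and -2.90 in cold plants, against 0.07, -0.42 and 0.44 in standard plants. Its second allele read 16, 14 and 8 in cold plants and 66, 44 and 64 in standard plants, and its thaliana allele read 95, 85 and 66 in cold plants and 63, 59 and 47 in standard plants. The alleles were near balance in standard plants and the thaliana allele led in each cold plant. The change was -2.67 ± 0.41 (limma adjusted p = 0.049).

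AT5G02240, an NAD(P)-binding Rossmann-fold protein (chromosome 5, 451406 to 453496), had the largest called change. Its ratio was -6.62, -6.92 and -6.39 in cold plants, against -0.74, -1.98 and -1.53 in standard plants. The second allele read 4, 5 and 1 in cold plants and 44, 65 and 46 in standard plants, while the thaliana allele read 490, 725 and 167 in cold plants and 74, 260 and 135 in standard plants. The thaliana allele led in all 6 plants, and by far more in the cold ones. The change was -5.23 ± 0.80 (limma adjusted p = 0.049). With 0.5 added to each allele instead of 1 it was -5.45 and with 10 added -3.64, because the second allele was near 0 in cold plants.

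Protein folding was represented by PFD6 and Fes1B. PFD6, a subunit of the prefoldin co-chaperone that passes tubulin and actin to the chaperonin, had ratios of -3.03, -2.88 and -2.61 in cold plants, against 0.12, -0.09 and -0.64 in standard plants. Its second allele read 13, 15 and 16 in cold plants and 110, 31 and 55 in standard plants, and its thaliana allele 113, 117 and 103 in cold plants and 101, 33 and 86 in standard plants. As deposited, neither allele overlapped between the groups, the second being lower and the thaliana higher in cold plants. The thaliana margin was narrow, 103 in cold replicate 3 against 101 in standard replicate 1, which had a TMM scaling factor of 0.773. After TMM scaling the thaliana allele changed by 0.55 ± 0.53 (limma adjusted p = 0.694). The second allele changed by -2.08 ± 0.58 (limma adjusted p = 0.180). The ratio changed by -2.64 ± 0.41 (limma adjusted p = 0.049).

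Fes1B is a nucleotide exchange factor of HSP70. Its ratio was -0.24, -0.17 and -0.51 in cold plants, against 1.95, 1.57 and 2.49 in standard plants, a change of -2.31 ± 0.34 (limma adjusted p = 0.049). Here it was the thaliana allele that differed, reading 72, 70 and 43 in cold plants and 7, 25 and 12 in standard plants, while the second allele read 61, 62 and 30 in cold plants and 30, 76 and 72 in standard plants. Alleles that were unequal in standard plants were close to equal in cold plants.

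COR15B, a chloroplast cold-regulated protein that protects membranes on freezing, gave the same kind of picture. Its ratio was 0.58, 0.60 and 0.00 in cold plants, against 3.50, 3.17 and 2.32 in standard plants. The thaliana allele read 19, 26 and 21 in cold plants and 2, 2 and 1 in standard plants, and the second allele 29, 40 and 21 in cold plants and 33, 26 and 9 in standard plants. The second allele was thus already present in standard plants at values that overlapped those in cold plants. The ratio changed by -2.60 ± 0.39 (limma adjusted p = 0.049), and by -1.10 with 10 added to each allele. Its tandem neighbour COR15A was not analysed here, and reads of the 2 genes could be split between them, so the value for COR15B is uncertain.

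The other called falls were AT3G10020, of no annotated function, and AT1G48770, a DUF1639 protein. AT3G10020 had ratios of -0.44, -1.31 and -0.91 in cold plants, against 1.31, 1.66 and 0.81 in standard plants (change -2.15 ± 0.32, limma adjusted p = 0.049). Its thaliana allele read 215, 305 and 74 in cold plants and 73, 11 and 15 in standard plants. AT1G48770 had ratios of -1.20, -1.47 and -1.89 in cold plants, against 0.43, 0.19 and 0.92 in standard plants (change -2.04 ± 0.32, limma adjusted p = 0.049), with alleles reading 26 or less in every plant.

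**Figure D3:**
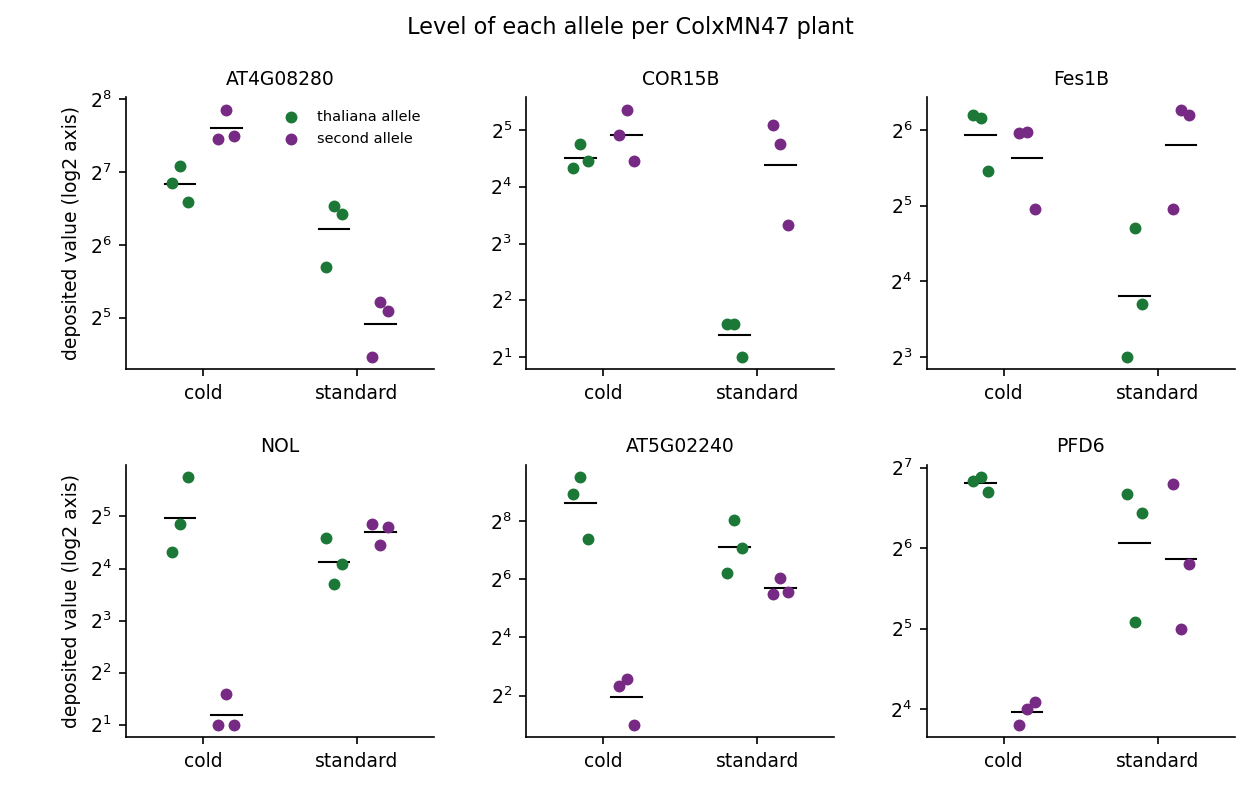
Deposited value of each allele (log2 axis) per ColxMN47 plant in 6 called genes, cold left and standard right, with bars at means of the logs. In NOL, AT5G02240 and PFD6 the second allele is lower in cold plants, and in COR15B and Fes1B the thaliana allele is higher.

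Taking the alleles apart, the thaliana allele was higher in cold plants in each of the 8 called falls after TMM scaling, by estimates of 0.35 to 2.97 on the log2 scale. These genes were picked for a falling ratio, which favours a higher thaliana allele. The thaliana allele was also higher in 484 of the 634 genes lower at an unadjusted p below 0.05. Of all 5778 genes with a lower ratio, it was higher in 3581. The second allele had the larger estimated change in 5 of the 8 called falls and the thaliana allele in 3. Of the 634 genes lower at an unadjusted p below 0.05, the thaliana allele had the larger estimate in 355 and the second in 279. Of the 404 higher genes, the thaliana allele had the larger estimate in 186 and the second in 218. Tested alone by limma, the thaliana allele gave 0 calls among 10618 genes (0%), with 1428 at an unadjusted p below 0.05 (13.4%). The second allele gave 3 calls (0.0283%), each higher, with 1350 at an unadjusted p below 0.05 (12.7%). Left as deposited, without TMM scaling, the median change over all genes was 0.22 for the thaliana allele (0.05 with TMM), with 1 call higher and 1 lower. For the second allele it was 0.17 (-0.001 with TMM), with 6 calls higher and 2 lower, and relative log expression scaling gave 4 higher and 2 lower. Leaving out 1 library gave 0 to 5 calls for the thaliana allele (5 without dehydration replicate 3, 2 without standard replicate 3) and 0 to 6 for the second (0 without cold replicate 1 or 2, 1 without dehydration replicate 1 or 2 or standard replicate 2, 6 without dehydration replicate 3).

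AT2G03390, a uvrB/uvrC motif protein, was one of the 3. Its second allele read 52, 60 and 51 in cold plants and 0, 1 and 0 in standard plants, a rise of 5.38 ± 0.60 (limma adjusted p = 0.0077). Its thaliana allele read 71, 121 and 87 in cold plants and 21, 86 and 81 in standard plants. The second allele was at or next to 0 in each standard plant, and the ratio changed by 4.69 ± 0.84 without passing the threshold (limma adjusted p = 0.102). AT2G30960, a myosin-M heavy chain-like protein, had second-allele values of 99 to 201 in cold plants and 6 to 12 in standard plants (rise of 3.89 ± 0.52, limma adjusted p = 0.027). MEE14 had 181 to 861 in cold plants and 11 to 30 in standard plants (rise of 4.46 ± 0.63, limma adjusted p = 0.031). For MEE14 the thaliana allele was also apart, at 561 to 1590 in cold plants and 29 to 151 in standard plants, and the ratio change of 1.11 had an adjusted p of 0.584 by limma.

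Further genes with no overlap and the lowest p-values did not pass the adjustment. NIT2, a nitrilase of indole-acetonitrile conversion with near-identical neighbours that could share its reads, had the largest change of all genes tested. Its ratio was 2.09, 2.44 and 1.81 in cold plants, against -0.36, -4.93 and -6.23 in standard plants (change 5.96 ± 1.24, limma adjusted p = 0.188). The thaliana allele read 3, 8 and 19 in cold plants and 17, 60 and 300 in standard plants, and the second 16, 48 and 69 in cold plants and 13, 1 and 3 in standard plants. The standard plants were spread far more widely than the cold plants. PGR5, of cyclic electron flow around photosystem I, had ratios of 1.34, 1.25 and 1.10 in cold plants, against 0.03, -0.19 and -0.18 in standard plants (change 1.34 ± 0.30, limma adjusted p = 0.184). Other positive changes in this set were 2.02 for the LEA-type protein AT1G17620, 1.78 for the receptor-like protein RLP46, 2.50 for the RING protein PIT1, 1.53 for AT1G04850, 1.47 for the ethylene response factor ERF15 and 1.60 for AT2G31710, with limma adjusted p-values of 0.073 to 0.185. In standard plants the alleles together averaged only 12.7 for RLP46 and 13.7 for PIT1, so these 2 changes rest on low values.

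On the negative side, RAB18, a dehydrin induced by abscisic acid, had ratios of -1.34, -1.11 and -0.91 in cold plants, against 0.88, 0.16 and 0.74 in standard plants (change -1.71 ± 0.30, limma adjusted p = 0.102). NdhN, a subunit of the chloroplast NADH dehydrogenase-like complex that CRR6 helps to build, had 0.01, -0.64 and -0.33 in cold plants and 1.25, 1.15 and 1.06 in standard plants (change -1.47 ± 0.28, limma adjusted p = 0.125). Both genes had cold plants on 1 side of all standard plants. The oleosin-type protein AT5G56100 had a change of -3.06 (limma adjusted p = 0.102) and AT3G06450, an HCO3- transporter family protein, one of -1.82 (limma adjusted p = 0.139).

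Members of 18 gene lists on cold, light, clock, hormone and tissue functions were then read from the same fit. Beside COR15B, no list member was called, against the background of 0.0942% of all genes, and list medians ran from -0.61 to 0.40 beside -0.05 for all genes tested. Of 18 cold-regulated effectors listed, 6 were tested, with a median of -0.61 and 1 called fall, COR15B. ERD7, a dehydration-induced senescence-associated protein, had -1.14 ± 0.56 in this list. Of 21 early cold regulators 10 were tested, with a median of -0.01. In that list STZ (ZAT10), a zinc-finger repressor induced within minutes of stress, had ratios of -0.62, -0.42 and -0.87 in cold plants and 0.87, 0.74 and 0.00 in standard plants (change -1.17 ± 0.33, limma adjusted p = 0.244). In standard plants the STZ thaliana allele read 5, 2 and 6 and the second allele 10, 4 and 6. That side rests on low values. RAV1, a transcription factor with AP2 and B3 domains, had a change of 0.42, and ICE1, the activator upstream of the CBF genes, one of 0.16. Summed levels of the early regulators were 1117 to 1308 in cold plants and 382 to 679 in standard plants, so this list was measured at higher values in the cold plants.

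Of the circadian clock, 18 of 25 genes were tested, none was called and the median was -0.08. TOC1, an evening-phased repressor of CCA1 and LHY, had ratios of 0.16, 0.62 and -0.44 in cold plants and -1.91, -0.26 and -2.42 in standard plants, which overlapped (change 1.64 ± 0.52, limma adjusted p = 0.295). GI, which acts in clock function and photoperiodic flowering, had 0.28, 0.25 and 0.68 in cold plants and 1.22, 1.10 and 1.58 in standard plants, without overlap (change -0.90 ± 0.31, limma adjusted p = 0.36). Summed levels of the 25 clock genes were 2219 to 3495 in cold plants and 1688 to 4091 in standard plants, and the part of sampling time in any ratio was not tested.

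Abscisic acid genes gave a median of -0.23 over 15 of 20 tested, with 2 of the 15 free of overlap upward and 5 downward, beside 8.56% upward and 13.0% downward over all genes tested. ABA2, the short-chain dehydrogenase of abscisic acid synthesis, had -1.50, -2.74 and -2.64 in cold plants and 0.33, -1.22 and -0.62 in standard plants (change -1.79 ± 0.56, limma adjusted p = 0.295). SNRK2.2, a kinase of abscisic acid signalling, had a change of 1.24 with overlapping plants. In the jasmonate, touch and wounding list 8 of 16 were tested, with a median of 0.40. Its members ran from -0.79 for MYC2, the bHLH regulator of jasmonate responses, to 0.97 for LOX2, the chloroplast lipoxygenase of jasmonate synthesis. Neither MYC2 nor LOX2 had overlapping groups, and the limma adjusted p-values were 0.386 for MYC2 and 0.518 for LOX2.

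Of 26 nuclear photosynthesis genes 23 were tested and none was called, but 22 of the 23 had an allele on or near the plateau of a cold plant, and neither their levels nor their ratios are read as a response to cold. LHCA4, a light-harvesting protein of photosystem I, was one of the 22. Its thaliana allele read 2855, 1558 and 3352 in cold plants, within 10% of the highest value of each library, and 10130, 8537 and 7935 in standard plants. Reads of light-harvesting and aquaporin families could be split between near-identical copies, so their values are uncertain.

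Starch and sugar genes had a median of 0.04 over 11 of 13 tested. DPE1 and SEX1, of starch breakdown, were both without overlap, DPE1 at -0.91 ± 0.31 (limma adjusted p = 0.343) and SEX1, the glucan water dikinase, at -0.83 ± 0.29 (limma adjusted p = 0.363). FUM2, the cytosolic fumarase, had a change of 2.37 with overlapping plants. Of the aquaporins 11 of 17 were tested, with a median of 0.16. TIP2 (TIP1;2), of the vacuole membrane, had -1.03, -0.68 and -1.20 in cold plants and 0.09, -0.09 and 0.16 in standard plants (change -1.03 ± 0.31, limma adjusted p = 0.273), and PIP2E, of the plasma membrane, had a change of 0.44.

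Among the other lists, all without a call, RNA processing in cold had a median of -0.42 over 7 of 12 tested, with 3 of the 7 free of overlap downward and 0 upward, beside 13.0% downward and 8.56% upward over all genes tested. RS40 at -0.62 and SCL33 at -0.68, both splicing factors, were among the 3. Membrane lipid genes had a median of 0.09 over 8 of 8, including -0.40 for the acyl-CoA-binding protein ACBP6 and -0.30 for the chloroplast desaturase FAD6. Flavonoid genes had 0.16 over 8 of 17, with 1.51 for flavonol synthase FLS1 and -0.92 for F3H. Glucosinolate genes had 0.28 over 8 of 14, with -0.73 for the regulator MYB34 and -0.31 for BCAT4. Darkness and sugar starvation genes had -0.05 over 8 of 8, with 1.06 for DIN10 and -0.46 for TPS8. Heat shock genes had 0.09 over 3 of 11, with -0.50 for HSF4 (HSFB1) and 0.41 for HSFB2A, and the value of HSFB2A was -0.068 without cold replicate 3. Guard cell, vascular and epidermis markers had -0.32 over 4 of 6, with members in both directions. MYB60 had -0.98 and FMA (FAMA) -0.94, both regulators of guard cells. SUC2, the phloem companion cell transporter, had 0.34 and KAT1 0.29. The summed level of this marker list was 177 to 582 in cold plants and 290 to 424 in standard plants. Reference genes had -0.03 over 5 of 12, with 0.72 for AT2G28390 and -0.56 for PP2AA3. No root or floral marker reached the level to be tested.

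**Figure D4:**
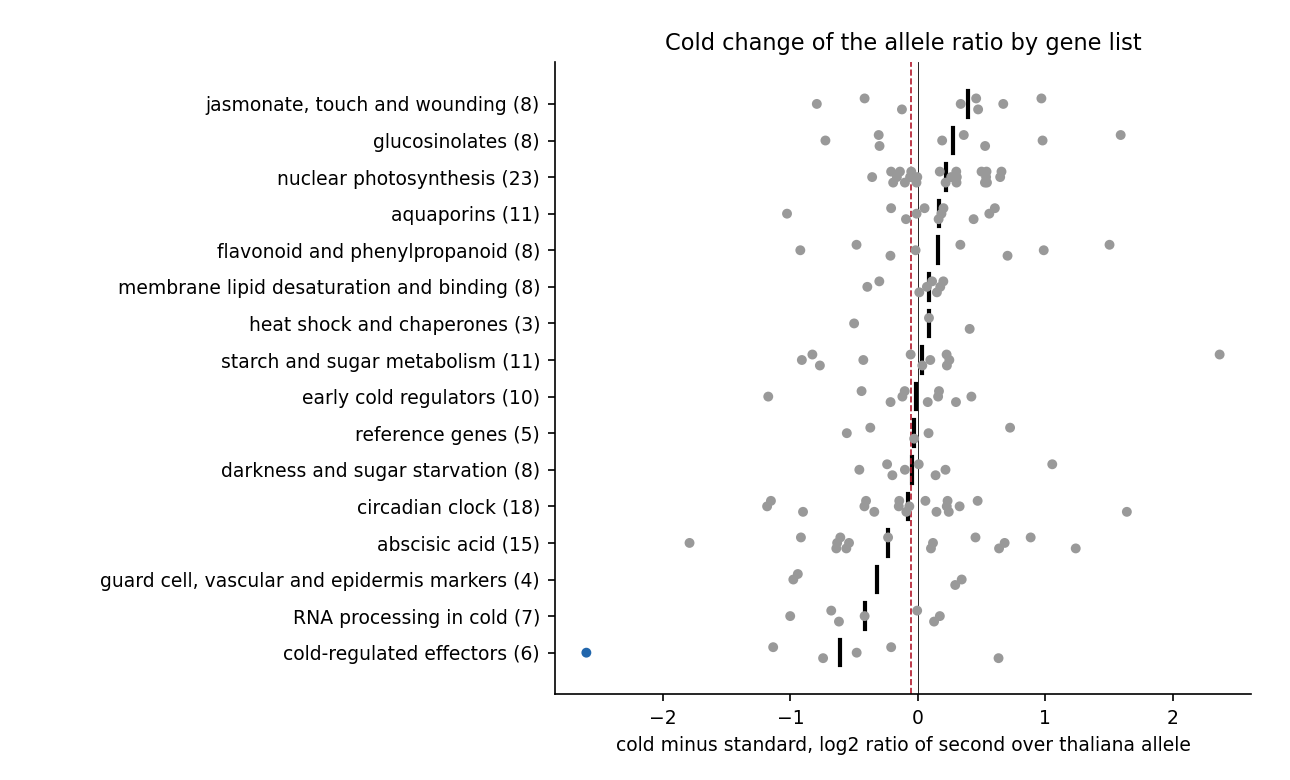
Cold minus standard change of the log2 allele ratio for each tested member (points) of 16 gene lists, with the number tested in brackets, black bars at list medians and a dashed line at the median of all 10618 genes. COR15B, in blue, is the called member, 22 of the 23 photosynthesis genes were on or near the plateau of the cold libraries, and the list medians run from -0.61 to 0.40.

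Cold plants were also set directly against the dehydration plants, which had the same light and duration. With limma, 0 of 10235 genes were called (0%), and 691 had an unadjusted p below 0.05 (6.75%). The count was 3 with no filter, 2 with centred ratios and 1 in a fit of these 6 plants. In AT4G08280 the dehydration plants had ratios of 0.41, 0.59 and 0.86, within or next to the range of the cold plants. In AT5G02240 they had -5.82, -6.33 and -6.76, and the second allele was again far behind. NOL had -2.13, -2.91 and -3.46, CRR6 -2.21, -2.35 and -1.70, and PFD6 -1.95, -2.07 and -2.18 in dehydration plants. COR15B had -0.08, -0.48 and -0.51 and Fes1B -0.58, -0.24 and 0.26 in dehydration plants. Cold and dehydration share the standard plants, so the 2 changes from standard are not independent. AT5G65170 had 0.65, 0.00 and 0.44 and AT3G10020 0.34, 0.08 and 0.23 in dehydration plants. In AT5G65170, AT3G10020, CRR6 and PFD6 every dehydration plant lay between the cold and the standard plants. RAB18 had 1.14, 0.43 and 0.73 in dehydration plants, overlapping the standard plants and apart from the cold plants. Its cold minus dehydration difference did not pass the adjustment.

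The cold change of ColxMN47 was compared with that of Colxhalleri, which has its own standard plants, by an interaction term over 9895 genes measured in both. The change differed in 7 genes by limma (0.0707%), 3 with the ColxMN47 change higher (0.0303%) and 4 lower (0.0404%), and 805 had an unadjusted p below 0.05 (8.14%). Without Colxhalleri standard replicate 1 the count was 41, and without any other single library of these 12 it was 1 to 5. Of the 10 called genes, 8 could be measured in Colxhalleri, and all 8 had a change of the same sign there, beside 59.7% of all 9895 genes and 72.5% of the 951 with an unadjusted p below 0.05 in ColxMN47. The smallest of these changes in Colxhalleri were -0.09 for AT5G02240 and -0.16 for AT1G48770, and the largest was -2.24 for NOL. In Colxhalleri standard replicates 2 and 3 the NOL alleles read 0 to 4 and those of AT3G10020 read 4 to 9. The standard side of both genes therefore rests on low values there. In standard replicate 1, where both NOL alleles read 48, the NOL ratio was 0, against -1.40, -0.74 and -1.68 in cold plants. Cold and standard plants of Colxhalleri overlapped in AT5G02240, AT1G48770 and AT3G10020. Of the called genes below the level there, COR15B had the opposite sign (0.71) and AT5G65170 the same sign (1.10).

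AT5G02240 differed most between the hybrids. In Colxhalleri its ratio was 0.09, 0.22 and 0.32 in cold plants and 0.69, 0.12 and 0.11 in standard plants, near balance in all 6 plants. Its cold change was -5.23 in ColxMN47 and -0.09 in Colxhalleri, a difference of -5.13 ± 0.61 (limma adjusted p = 0.0017). This call was kept in 20 of 20 alternatives, with adjusted p-values of 7.55e-05 to 0.028. CRR6 had a cold change of -2.67 in ColxMN47 and -0.46 in Colxhalleri (difference -2.21 ± 0.39, limma adjusted p = 0.047). In Colxhalleri the CRR6 alleles read 4 to 6 in standard replicates 2 and 3, so that side rests on low values.

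RAB18 had estimates of opposite sign, -1.71 in ColxMN47 and 0.94 in Colxhalleri (difference -2.66 ± 0.43, limma adjusted p = 0.033). In Colxhalleri its ratio was 1.89, 2.48 and 1.39 in cold plants and 0.93, 1.00 and 1.00 in standard plants, and the alleles read 0 and 1 in standard replicates 2 and 3. AT3G06450 had a cold change of -1.82 in ColxMN47 and 0.58 in Colxhalleri (difference -2.39 ± 0.42, limma adjusted p = 0.047). Its alleles each read 6 in Colxhalleri standard replicate 2, and its second allele read 3, 9 and 9 in ColxMN47 cold plants. This difference therefore rests partly on low values. Neither gene passed the adjustment within ColxMN47 itself.

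In LHCB4.3, LSF2 and PSBR the estimate was nearer 0 in ColxMN47 than in Colxhalleri. LHCB4.3, a minor antenna protein of photosystem II, had a cold change of 0.21 in ColxMN47 and -2.78 in Colxhalleri (difference 2.99 ± 0.46, limma adjusted p = 0.025). For LSF2, a phosphoglucan phosphatase of starch breakdown, it was 0.25 in ColxMN47 and -1.70 in Colxhalleri (difference 1.95 ± 0.32, limma adjusted p = 0.033). For PSBR, a photosystem II subunit, it was 0.54 in ColxMN47 and -1.27 in Colxhalleri (difference 1.81 ± 0.32, limma adjusted p = 0.047). Both hybrids had the plateau in their cold plants, with 24, 28 and 26 thaliana values within 10% of the highest in Colxhalleri, and PSBR was on or near it, so its difference is not read as one between alleles. Leaving out the 86 genes near the plateau in either hybrid gave 6 calls, PSBR being left out with them. In ColxMN47 the ratio of LHCB4.3 was -0.61, 0.19 and -0.14 in cold plants and -0.30, -0.97 and 0.07 in standard plants, so the groups overlapped. In Colxhalleri it was -1.12, -1.34 and -1.30 in cold plants and at least 1.00 in each standard plant, with no overlap. The LHCB4.3 thaliana and second alleles there read 9 and 19 in standard replicate 2 and 4 and 12 in standard replicate 3. These 2 plants therefore rest on low values.

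**Figure D5:**
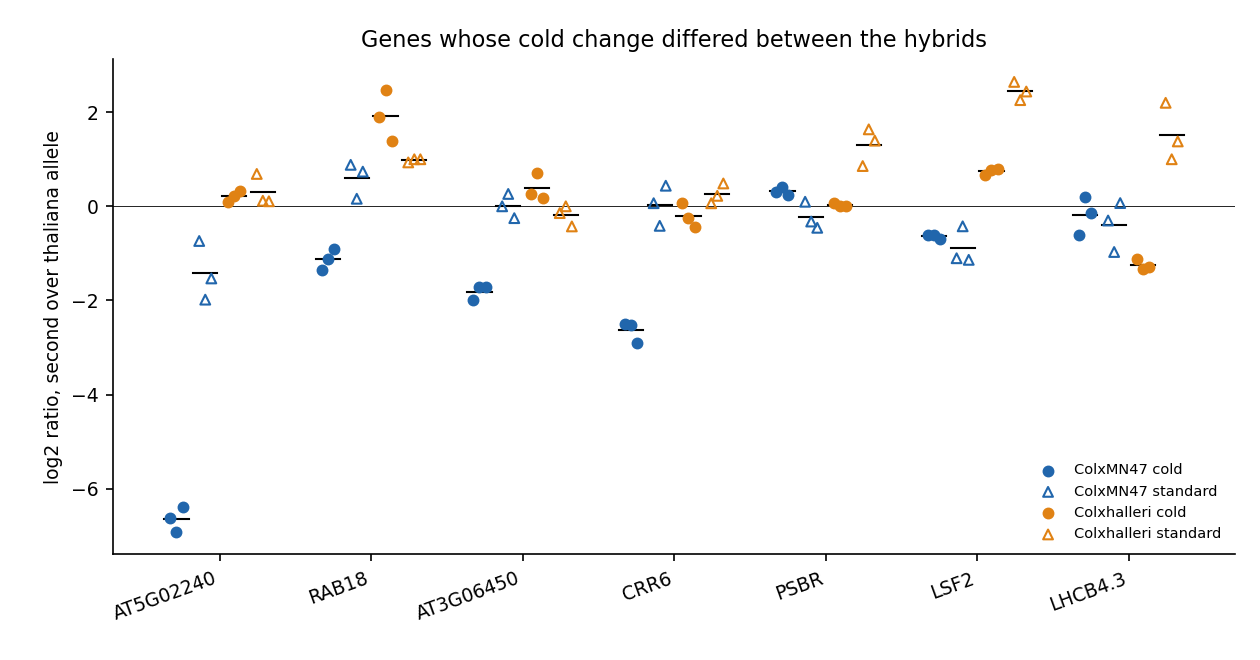
Log2 ratio of second over thaliana allele per plant for the 7 genes called for a difference in cold change between hybrids, PSBR among them being on or near the plateau of the cold libraries, ColxMN47 in blue and Colxhalleri in orange, cold filled and standard open, with bars at means. AT5G02240 is at -6.92 to -6.39 in ColxMN47 cold plants and at 0.09 to 0.32 in Colxhalleri cold plants.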

How the data were processed

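RNA was taken from the aerial part of 1 plant per library with TRIzol and the TruSeq RNA v2 kit, which does not mark strand, per the labels' protocols. The submitters' processing notes name TopHat2, SAMtools, DESeq2 and TAIR10, and the way reads were given to an allele is not given in the sources used. The deposited value per allele is a score: judged by the values, reads per allele were scaled with a single factor for each library and rounded, and 1 was added, so a count test was not used. The log2 ratio used the deposited values with that 1, which pulls low genes toward equal alleles. The 18 libraries were grouped by their labels and no pair was identical. A model with group means was fitted to the 9 ColxMN47 libraries (to all 18 for the difference between hybrids) in R 4.3.3 with limma 3.58.1, and p-values were 2-sided with Benjamini-Hochberg adjustment. Single alleles were TMM-scaled, trimming 30% by log ratio and 5% by mean level. Symbols and coordinates came from RefSeq TAIR10.1, which matched 16404 genes and missed 15.

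Named genes were up to 10 rises and 10 falls without overlap whose higher group averaged 50 or more, called genes first and then those of lowest p. The rule also took up to 2 members per list, and for the hybrids up to 3 called genes in each direction. NOL, AT5G65170, AT1G48770, the 3 genes called for the second allele, CRR6 between hybrids and a few other list members (ICE1, FUM2, SUC2 and KAT1) were named after their values were seen. The genes, lists and tests were chosen with earlier results of these data known. On simulated data in this design over 10618 genes, the test recovered 27 of 100 genes simulated at 4-fold and 96 of 100 at 16-fold, with 7 false among 130 calls. The simulation drew counts with 1 allele spread, taken from genes with both alleles over 50. It changed only genes with both alleles at 10 or more. It held no scaling, plateau or library that stood apart, so its share of false calls does not carry over to the deposited values. Alternatives were a mean of 50 or no filter, centred ratios, 0.5 or 10 added, other scaling, library weights, a replicate block, fits of fewer plants and each library left out. Leaving out the libraries that stood apart, and leaving out genes with an allele within 10% of a cold library's highest thaliana value or above it, were added after seeing the data. Random draws used seed 1.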

Additional observations from a re-analysis of the deposited data

Results flagged for a closer look

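The cold change of the allele ratio differed between ColxMN47 and Colxhalleri, by a test of the difference itself (limma interaction term), in 7 of 9895 genes. The difference, ColxMN47 minus Colxhalleri on the log2 scale, was -5.13 for AT5G02240, -2.66 for RAB18, -2.39 for AT3G06450, -2.21 for CRR6, 2.99 for LHCB4.3, 1.95 for LSF2 and 1.81 for PSBR. PSBR stood on or near the plateau of high values in the cold plants, so its difference is not read as one between alleles. The call for AT5G02240 was kept in all 20 alternatives in which it was measured, that for LHCB4.3 in 11 of 20 and that for LSF2 in 8 of 20. RAB18 kept it in 5 of 18, CRR6 in 6 of 20, AT3G06450 in 4 of 19 and PSBR in 3 of 19, and each of the 7 differences kept its sign.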

How the results depend on the processing

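For the change of allele ratio in cold (10 calls), the count was 4 with no filter, 2 in a fit of the 6 plants, 17 with centred ratios (5 higher, 12 lower), 1 with 0.5 added, 70 with library weights (20 higher, 50 lower), 2 without the libraries that stood apart, and 0 to 3 with 1 library left out. A replicate block gave 0 calls. Deviations of same-numbered cold and standard plants correlated at -0.0062, -0.118 and -0.034, so the numbers were not taken as pairs. The thaliana allele (0 calls) gave 2 as deposited, 40 with no filter, 12 with 10 added, 1 with the replicate block and 0 to 5 with 1 library left out. The second allele (3 calls) gave 8 as deposited, 6 with relative log expression scaling, 42 with no filter, 16 with 10 added, 1 in a fit of the 6 plants, 6 with the replicate block and 0 to 6 with 1 library left out. The difference between hybrids (7 calls) gave 14 with a mean of 50 or more, 3 with 0.5 added, 2 with the replicate block, 2 in a fit of the 12 plants, 1 without the libraries that stood apart and 1 to 41 with 1 library left out. Cold minus dehydration (0 calls) gave 3 with no filter, 2 with centred ratios, 1 in a fit of the 6 plants and 0 with the replicate block. Leaving out the genes near the plateau gave 10, 0, 3, 6 and 0 calls in the same order. The causes were not tested. Among named genes 1 value reversed, HSFB2A at -0.068 without ColxMN47 cold replicate 3 (-0.068 to 0.868 with 1 library left out), and otherwise 888 values stayed on the same side of the threshold, 216 no longer passed it and 23 newly passed it. Read depth is unknown, and the precision of low genes is limited by the 1 added to each allele.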
